A study of Homo sapiens with 3 samples.

Results

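The genes described here encode the axonemal dynein arms, the factors that assemble them and the docking complex that holds them. They were taken by gene symbol: every probe set whose annotated symbol was DNAH, DNAI, DNAL, DNAAF or ODAD followed only by a number. These symbols cover 35 human genes in the RefSeq gene table, and 34 of them were measured by probe sets naming a single gene, out of 19775 genes measured in all. The family was chosen by measured values, because DNAI4, DNAAF4 and DNAI7 were already known to have high signals in the transfectant arrays relative to mock. Those differences are therefore a description and support nothing. A gene's symbol, and not its value, decided whether it was included.

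RNA came from NCI-H1299, an established human lung cancer line, on 3 expression arrays: 1 from mock cells, 1 from cells given miR-34a and 1 from cells given ghR-34a. The transfected RNAs were used at 25 nM with the lipid reagent Lipofectamine RNAiMAX for 48 hours, and 250 ng of RNA was labelled per array. The labels do not say what mock cells received or what ghR-34a is beyond its name, and there was no array from cells given an unrelated RNA. With 1 array per condition there is no spread between cultures, so no difference was tested, and the number of arrays limits the precision of all values.

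Motile cilia beat because dynein arms on each outer microtubule doublet walk along the neighbouring doublet. Each arm holds heavy chains, the motors, together with intermediate and light chains. Outer arms set much of the beat frequency and inner arms shape the waveform. Arms are put together in the cytoplasm by dedicated assembly factors that work with general chaperones, and outer arms are then anchored by the docking complex. In the airway these genes are typical of multiciliated cells. MicroRNAs of the miR-34 and miR-449 families share a seed, are abundant in such cells and are known to act in their formation, in part through CCP110, an inhibitor of ciliogenesis.

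Mature sequences are shown because the seed (bases 2 to 8, in capitals) is what miR-34a shares with the miR-449 family. They are from RefSeq on GRCh38.p14. Of 2545 mature human sequences in that table, 3 carry the seed of miR-34a-5p. They are encoded at chr1:9151735-9151756, chr5:55170586-55170607 and chr5:55170706-55170727, all on the minus strand. No entry named hsa-miR-34c-5p, another family member, was found in that table, so the 3 may not be all human sequences with this seed.
hsa-miR-34a-5p: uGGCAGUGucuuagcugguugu
hsa-miR-449a: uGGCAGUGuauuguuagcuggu
hsa-miR-449b-5p: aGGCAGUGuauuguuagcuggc
hsa-miR-34b-5p: uAGGCAGUgucauuagcugauug
The last, at chr11:111512950-111512972 on the plus strand, is a family member without this seed. Its bases 2 to 8 are AGGCAGU, and the run GGCAGUG starts 1 base later in it. The labels give the name miR-34a with no sequence, so the mature form shown is the RefSeq one, and no sequence is shown for ghR-34a.

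Signals are linear probe set intensities. Differences are of log2(signal + 32), a scale that understates the change of dim genes, and folds are given on the same scale. Each gene is represented by its probe set of highest mean, and a gene was kept where that mean reached a signal of 68.6, the median over all probe sets. This left 11916 genes, of which 22 were members. A difference was counted at a log2 size of at least 1, which is 2-fold. Signals of different probe sets depend on the probes, so levels are compared between arrays and not between genes. Against mock, all kept genes together had a median difference of 0.038 (miR-34a) and 0.010 (ghR-34a). Spike-in control probe sets, 45 in number, had an SD of the difference of 0.15 and 0.17, a measure of array noise that leaves out differences between cultures. ACTB was at 0.12 and 0.065 and GAPDH at -0.022 and -0.11 in the same order. KRT8, KRT18 and VIM, markers of epithelial and mesenchymal cells, passed the filter in this line. The epithelial markers EPCAM and CDH1 did not, at signals of 18.1 to 32.5 and 4.74 to 21.1. Of the measured lung lineage markers 3 of 4 passed (SFTPB, SFTPC and AGER). So did 1 of 4 leukocyte markers (CD3E) and 1 of 3 endothelial markers (PECAM1). Passing the filter therefore does not by itself mark a cell type.

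With miR-34a, 16 of the 22 kept members had a signal above that of mock and 6 a signal below it. Of all kept genes, 55.2% were above mock. DNAI4, DNAAF4, DNAI7 and DNAAF9 were at least 2-fold higher, and DNAH6 was at least 2-fold lower. Over all kept genes, 1.22% were at least 2-fold higher and 1.14% at least 2-fold lower. The members' median difference was 0.50, with quartiles of -0.019 and 0.84, beside 0.038 over all kept genes. With ghR-34a 15 of the 22 were above mock, where 51.8% of all kept genes were, with a median of 0.31 beside 0.010. There DNAI4, DNAAF4 and DNAI7 were at least 2-fold higher and 0 members at least 2-fold lower, where the shares over all kept genes were 0.453% and 0.562%. Nothing is read from these counts, because the family was chosen on the same differences. Both comparisons use the single mock array, so they are not independent of each other.

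**Figure D1:**
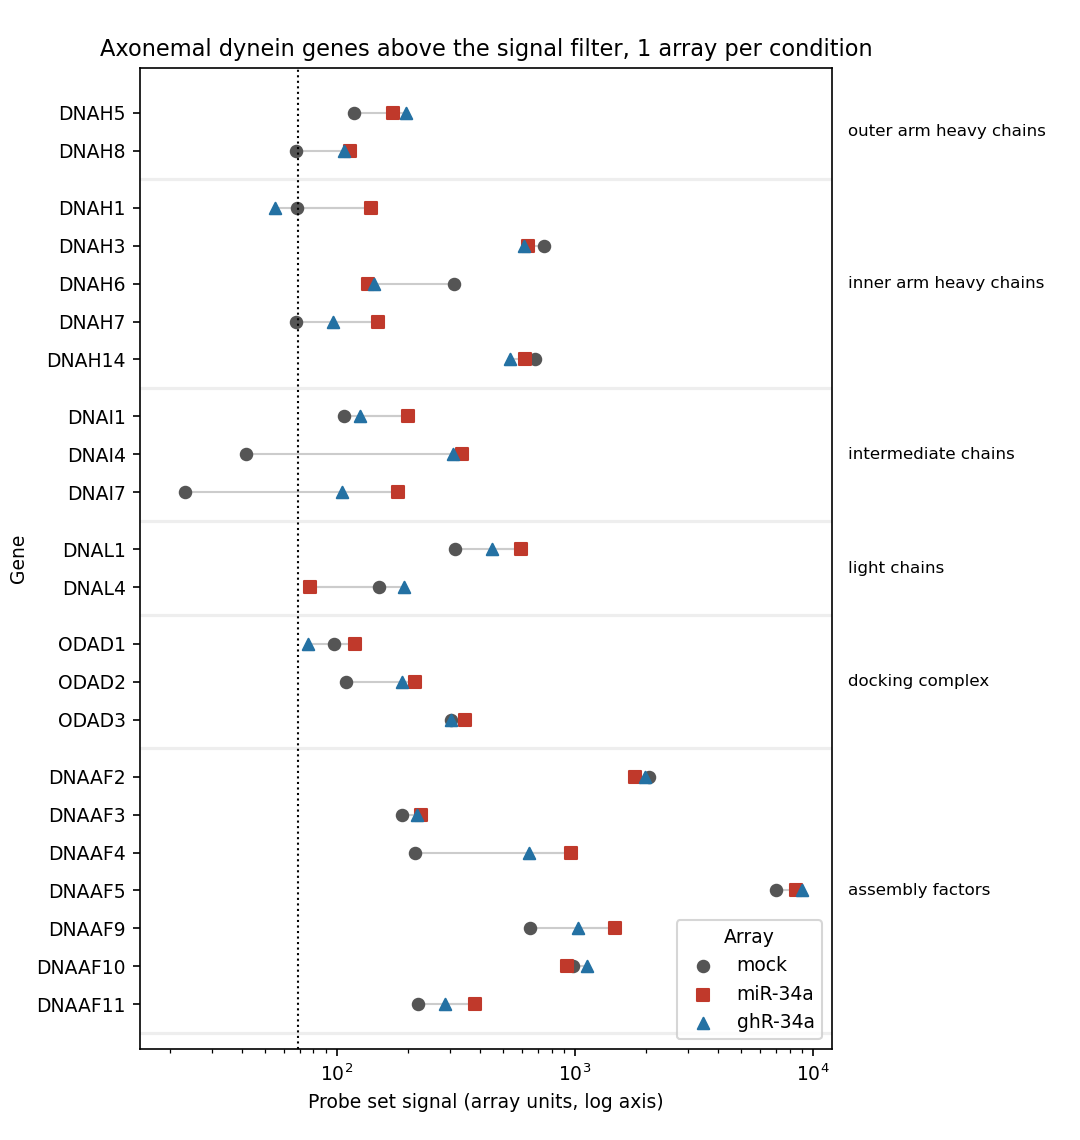
Signal of the 22 kept genes (log axis, linear intensity) in the mock, miR-34a and ghR-34a arrays, 1 point per array, grouped by role; the dotted line is the filter level of 68.6. DNAI4 and DNAI7 lie below the line in mock and above it in both transfectant arrays, and DNAH6 is highest in mock.

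The intermediate chains, which sit at the base of the arm and link the motors to their cargo, included the largest difference of the family. DNAI4, assigned to an inner arm, had a signal of 41.5 in mock, 337 with miR-34a and 307 with ghR-34a. Its mock signal was below the filter level and both transfectant signals were well above it. The log2 difference from mock was 2.33 with miR-34a and 2.21 with ghR-34a, 5.02-fold and 4.61-fold. The ratio of the signals themselves was 8.11 and 7.40. DNAI4 has 4 other probe sets. One had signals of 37.2, 149.9 and 143 in mock, miR-34a and ghR-34a, and another had 40.9, 145 and 82.3. A further one had 55.3, 94.9 and 109, and the last had 50.2, 68.6 and 49.2. All 4 were above mock with miR-34a, by 0.29 to 1.39, and all but the last were above mock with ghR-34a. The mean of the 5 probe sets was 1.17 and 0.97, so the size of the difference depends on the probes used.

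DNAI7, named as an intermediate chain, had a signal of 23.2 in mock, 181 with miR-34a and 105 with ghR-34a. The 3 values were well separated, with mock lowest and miR-34a highest. The differences from mock were 1.95 and 1.32 (3.87-fold and 2.49-fold), and the raw ratios 7.82 and 4.55. It has 1 probe set, and its mock signal is too low for the size to be firm. DNAI1, an intermediate chain of the outer arm and a long-known gene of primary ciliary dyskinesia, had signals of 107, 199.8 and 125. Only the miR-34a array stood well above mock, at 0.73 against 0.17 for ghR-34a. Its second probe set, at 7.33, 10.4 and 2.04, gave 0.11 and -0.21, and the mean of both was 0.42 and -0.02.

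The assembly factors held the other 2 members that reached 2-fold with miR-34a. DNAAF4, a co-chaperone needed for preassembly of both kinds of arm, had a signal of 213 in mock, 962 with miR-34a and 640.0 with ghR-34a. All 3 signals were above the filter level, so this difference did not start from a mock value below the filter. It was 2.02 with miR-34a and 1.45 with ghR-34a, 4.05-fold and 2.74-fold. DNAAF4 has 1 probe set of its own. A probe set shared with its read-through transcript DNAAF4-CCPG1 had signals of 179.7, 452 and 206, differences of 1.19 and 0.17, and cannot be assigned to either. The shared probe set therefore had a much smaller ghR-34a difference than DNAAF4's own.

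DNAAF9, the human counterpart of a ciliate protein that packages outer arms for transport, had signals of 651, 1481 and 1029. Its difference was 1.15 with miR-34a and 0.64 with ghR-34a, 2.22-fold and 1.55-fold. A second probe set, at 333, 608 and 435, gave 0.81 and 0.36, and the mean of both was 0.98 and 0.50, so with miR-34a the gene lies just at the 2-fold line. DNAAF11, which works with ZMYND10 in assembly, had signals of 221, 383 and 285, at 0.72 and 0.33. Its second probe set, at 62.2, 89.0 and 39.996, was above mock with miR-34a (0.36) and below with ghR-34a (-0.39).

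The remaining kept assembly factors differed less from mock. DNAAF5, a HEAT-repeat protein, had signals of 7034, 8468 and 9001, differences of 0.27 and 0.35, and its second probe set gave 0.39 and 0.58. DNAAF3 had signals of 188, 226 and 218, at 0.23 and 0.18. Both probe sets of DNAAF5 and the one of DNAAF3 were above mock in both arrays. DNAAF2, a PIH-domain protein that binds chaperones, had signals of 2062, 1789.8 and 1968, at -0.20 and -0.07. DNAAF10, a partner of a prefoldin-like chaperone complex, had 986, 929.8 and 1123, at -0.08 and 0.18. Of the 7 kept assembly factors, 5 were thus above mock with miR-34a, with a median of 0.27, where 55.2% of all kept genes were. With ghR-34a 6 of the 7 were, with a median of 0.33, where 51.8% of all kept genes were.

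**Figure D2:**
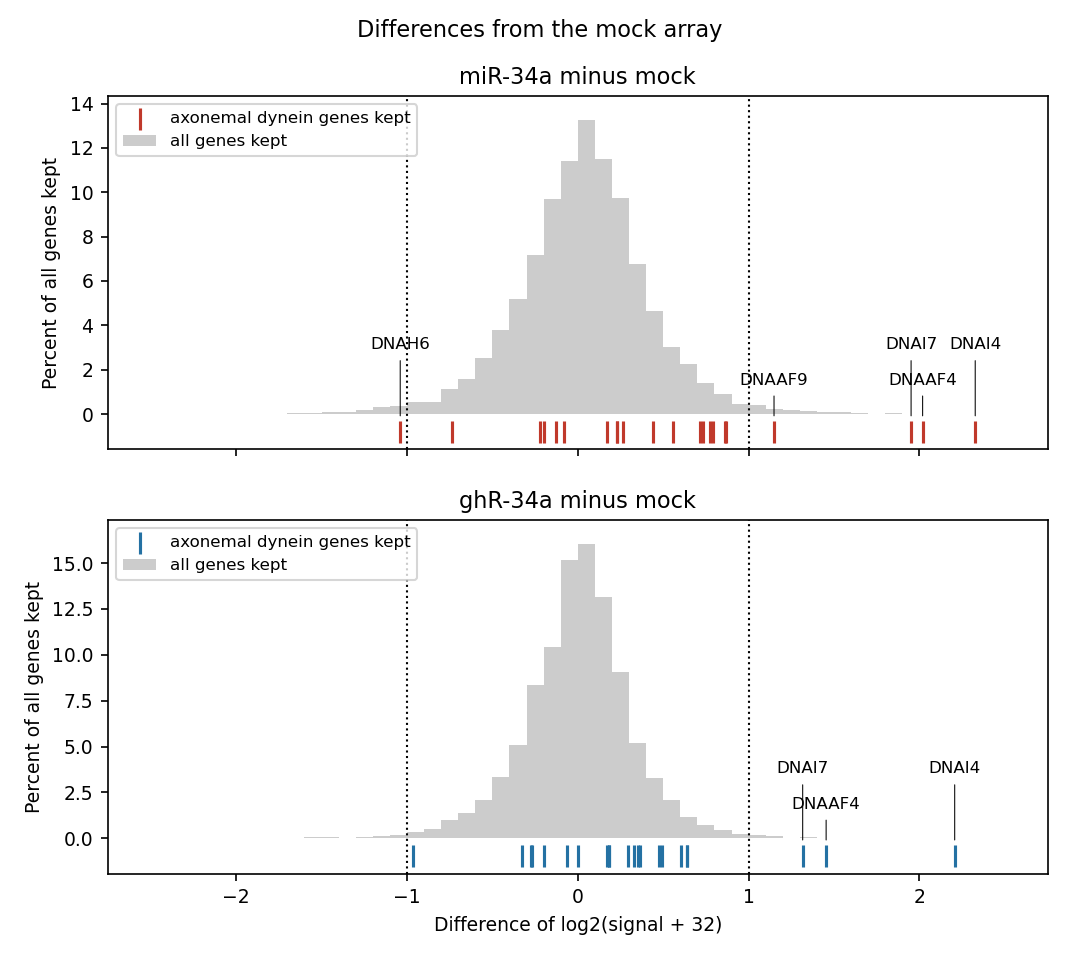
Log2 differences from mock of all 11916 kept genes (histogram, bins of 0.1) with the 22 members as ticks, for miR-34a (upper) and ghR-34a (lower); dotted lines mark 2-fold. With miR-34a, 4 members lie beyond the upper line and DNAH6 beyond the lower one; with ghR-34a, 3 lie beyond the upper line and none beyond the lower.

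The heavy chains, the motor subunits, did not share a direction. DNAH6, an inner arm heavy chain, was the member with the largest negative difference. It had a signal of 312 in mock, 135 with miR-34a and 144 with ghR-34a. Both transfectant signals were similar and well below that of mock. The differences were -1.04 and -0.96, 2.06-fold and 1.95-fold lower, so the gene lay just inside the 2-fold line in one array and just outside it in the other. The next brightest of its 8 probe sets had signals of 55.6, 16.8 and 25.4, and 56.4, 14.1 and 18.1, which were also lower than mock. The other 5 did not exceed 20.7 in any array, and the mean over all 8 was -0.27 and -0.17. The direction of DNAH6 thus rests on 1 probe set above the filter and 2 dim ones.

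DNAH7, an inner arm heavy chain, had signals of 67.6, 149.96 and 96.2, at 0.87 with miR-34a and 0.36 with ghR-34a. Its second probe set, at 71.0, 111 and 43.3, gave 0.48 and -0.45. The miR-34a array was the highest for both, and they differed in sign for ghR-34a. The remaining one, with signals of at most 23.4, was below mock in both transfectant arrays. DNAH1, another inner arm heavy chain, had signals of 67.9, 139 and 55.0, at 0.78 and -0.20. It has 13 probe sets, of which this one alone passed the filter. Its identifier ends in _s_at, which marks possible cross-reaction, and without such probe sets DNAH1 was at -0.07 and -0.67, from signals below the filter. DNAH14 had 681, 620.5 and 536, at -0.13 and -0.33. Its 3 other probe sets did not exceed 29.1, and the mean of all 4 was turned in sign, at 0.16 and 0.05. DNAH3 had 745, 635 and 611, at -0.22 and -0.27. The DNAH3 value comes from an _x_at probe set, another mark of possible cross-reaction. Its 4 other probe sets ranged from 0.523 to 40.7, and without the _x_at one DNAH3 was at 0.53 and 0.25, turned in sign. Over the 5 kept inner arm heavy chains the median was -0.13 with miR-34a and -0.27 with ghR-34a.

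The 2 kept outer arm heavy chains were above mock in both transfectant arrays. DNAH5, in which mutations are a common cause of primary ciliary dyskinesia, had signals of 118, 172 and 196, at 0.44 and 0.60. Its second probe set, at 81.1, 98.5 and 102, gave 0.21 and 0.24, and both are of the _s_at or _x_at kind. DNAH8, best known from sperm, had 67.4, 114 and 108, at 0.55 and 0.49. Mock was the lowest of the 3 arrays for both genes, and neither reached 2-fold.

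The light chains differed from each other. DNAL1, which binds the motor domain of an outer arm heavy chain, had a signal of 314 in mock, 597 with miR-34a and 449 with ghR-34a, at 0.86 and 0.47. A second probe set, at 99.0, 176 and 117, had the same order of arrays, at 0.67 and 0.19, and the third, at 132, 118 and 106, had mock highest. DNAL4, the other kept light chain, had signals of 150.2, 77.2 and 191 from 1 probe set. It was lower than mock with miR-34a (-0.74) and above mock with ghR-34a (0.29).

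The docking complex had no member at 2-fold. ODAD2, an armadillo-repeat protein needed for outer arm docking, had signals of 109.8, 213 and 189, at 0.79 and 0.64. Its second probe set had 98.3, 83.6 and 95.9, at -0.17 and -0.03, so the probe sets differed in sign. ODAD1, a coiled-coil subunit, had 97.9, 119.99 and 75.9, at 0.23 and -0.27, from an _x_at probe set alone. ODAD3, another coiled-coil subunit, had 303, 346 and 303, at 0.17 and -0.00. The median of the 3 was 0.23 with miR-34a and near 0 with ghR-34a.

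**Figure D3:**
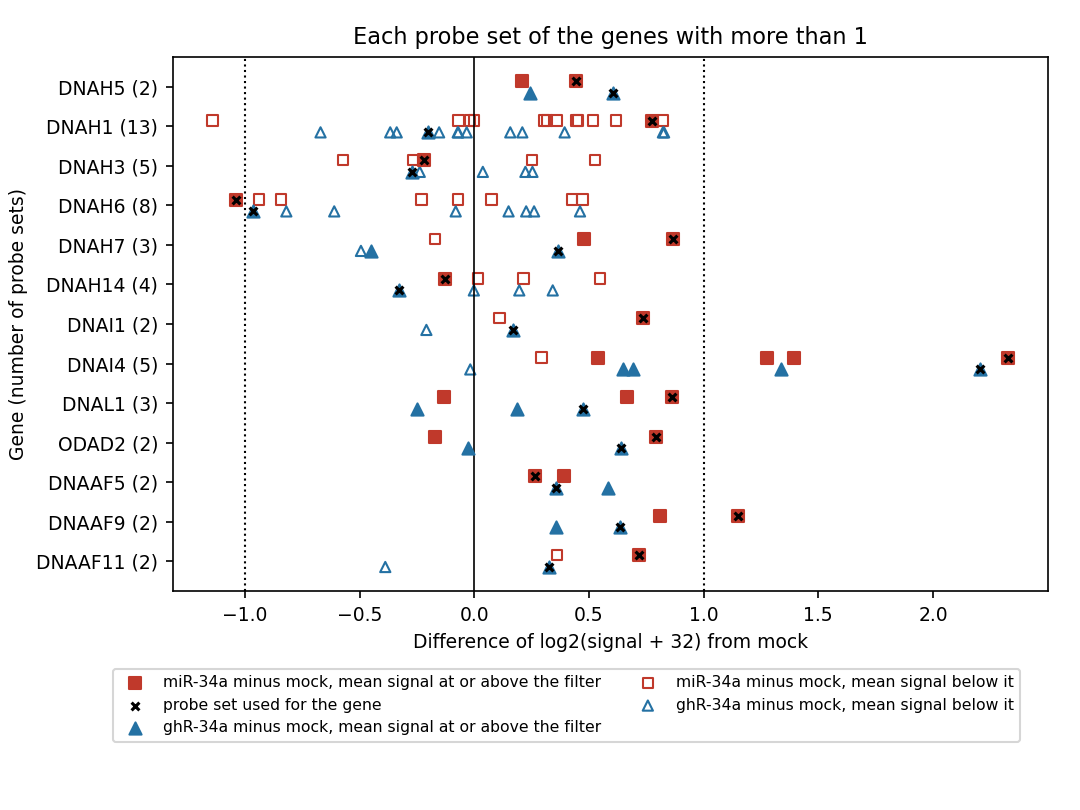
Log2 difference from mock of every probe set of the 13 kept genes with more than 1, for miR-34a and ghR-34a; filled points have a mean signal at or above the filter, open points lie below it, and crosses mark the probe set used. The probe sets of DNAI4 lie at or above 0 with miR-34a, whereas those of DNAH1 and DNAH6 spread over both sides of 0.

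The other 12 measured members were below the filter: DNAAF1, DNAAF6, DNAAF8, DNAH2, DNAH9, DNAH10, DNAH11, DNAH12, DNAH17, DNAI2, DNAI3 and ODAD4. Their 23 probe sets had signals from 1.40 to 82.3 across the arrays. They include DNAH9 and DNAH11, heavy chains of airway outer arms, and DNAI2, the usual partner of DNAI1. DNAH9 had signals of 21.2 in mock, 1.40 with miR-34a and 35.1 with ghR-34a, and its difference of 1.01 between the transfectant arrays lies within these low values. ODAD4, a subunit of the docking machinery, came closest to the filter from below, at 30.7, 82.3 and 57.1 (mean level 54.1). DNAH1 was the nearest above it (mean level 82.2). DNAAF19 had only a probe set shared with FAM187A, at 29.6, 84.0 and 71.0, which cannot be assigned. Without a filter, 4 of 34 members were at least 2-fold higher with miR-34a, where 1.92% of all measured genes were. With ghR-34a 3 of 34 were, where 1.09% of all genes were. The members' medians were then 0.25 and 0.24.

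How bright a gene was in mock bears on these counts. Of the 22 kept members, DNAH1, DNAH7, DNAH8, DNAI4 and DNAI7 had mock signals below 68.6 and passed only through transfectant signals. For DNAH1 this was the miR-34a array alone, because its signal with ghR-34a was 55.0. Among the 17 with a mock signal at or above 68.6, DNAAF4 and DNAAF9 were at least 2-fold higher and DNAH6 lower with miR-34a. The median of the 17 was 0.23. Of all kept genes with such a mock signal, 0.93% were higher and 1.17% lower, with a median of 0.031. With ghR-34a DNAAF4 alone of the 17 was at least 2-fold higher, and the median was 0.18. Over all such genes 0.28% were higher, with a median of 0.0036. Dim genes reached 2-fold more often throughout: with miR-34a, 2.56% of all kept genes with a mean signal under 250 were at least 2-fold higher, and 0.795% of brighter ones. Of the members, 2 of 12 dim and 2 of 10 brighter ones were.

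A further comparison, at matched dose and time, asked where ghR-34a and miR-34a gave different levels of these genes. Of the 22 kept members, 6 were above the miR-34a array and 16 below, with a median of -0.16 beside -0.031 over all kept genes. Of all kept genes, 44.4% were above. After median centring of each array 9 members were above and 13 below, where 63.8% of all kept genes were above. The medians were then -0.06 for the members and 0.080 over all kept genes, so zero itself depends on the scaling. Quantile normalization gave 8 members above and 14 below, with a median of -0.11, where 47.1% of all kept genes were above. Without a filter 13 of 34 members were above, with a median of -0.09, where 45.1% of all genes were above. DNAL4 was the single kept member at 2-fold, 2.05-fold higher with ghR-34a (1.03), where 0.327% of all kept genes were at least 2-fold higher and 0.344% lower. DNAH1 was at -0.98, just short of 2-fold lower, from the _s_at probe set described above. That gene passed the filter only through its miR-34a signal, so nothing is read from this difference. DNAI7 (-0.63), DNAAF4 (-0.56), DNAI1 (-0.56), DNAH7 (-0.51), DNAAF9 (-0.51) and ODAD1 (-0.49) followed, then DNAAF11 and DNAL1 (both -0.39). In the other direction DNAAF10 was at 0.26, DNAH5 at 0.16 and DNAAF2 at 0.13. DNAI4 was at -0.12. The spike-in SD for this pair of arrays was 0.12, which covers technical noise only and not the difference between single cultures. The miR-34a array had the highest of the 3 signals for 14 of 22 kept members (63.6%) and for 41.1% of all kept genes. The miR-34a array also had the highest median signal over all probe sets, 74.98 beside 70.6 in mock and 69.2 with ghR-34a. The part of this in the members' order was not tested.

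Other genes of dynein arms and their assembly, listed from general knowledge, were described in the same way. Of 16 measured, 13 were above mock with miR-34a, with a median of 0.13, and 13 with ghR-34a, with a median of 0.26. Of all measured genes, 54.7% and 51.0% were above mock. The 3 below mock with miR-34a, DAW1 (-0.46), CCDC63 (-0.73) and DRC5 (-0.20), were among the 5 under the filter. Of the 11 that passed it, 11 were above mock, with a median of 0.41, where 55.2% of all kept genes were. PIH1D2, a PIH-domain protein related to assembly factors, had signals of 79.5, 249.7 and 221, at 1.34 with miR-34a and 1.18 with ghR-34a. NME8, a thioredoxin-like protein associated with outer arms, had 48.3, 164 and 119, at 1.29 and 0.91, and passed the filter only through the transfectant arrays. LRRC56, a factor in outer arm transport, had 94.7, 225 and 154, at 1.02 and 0.55. These were the 3 of 11 at least 2-fold higher with miR-34a, where 1.22% of all kept genes were. With ghR-34a PIH1D2 alone was, where 0.453% of all kept genes were. In that array 10 of 11 were above mock, with a median of 0.42, beside 51.8% of all kept genes. ZMYND10, the partner of DNAAF11, was at 0.78 and 0.44, and SPAG1, a chaperone-binding assembly factor, at 0.01 and -0.02.

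Cytoplasmic dyneins, which move cargo in the cell body or within cilia, and light chains shared with them lay on both sides of mock, more often above. Of 17 measured, 16 passed, 13 of them above mock with miR-34a and 14 with ghR-34a, with medians of 0.22 and 0.11. Over all kept genes 55.2% and 51.8% were above mock, with medians of 0.038 and 0.010. DYNC2LI1, a subunit of the dynein that carries cargo back along the cilium, had signals of 513, 1384 and 1366, at 1.38 and 1.36. It was the single gene of the 16 at 2-fold, where 1.22% and 0.453% of all kept genes were at least 2-fold higher. The motor of the same ciliary dynein, DYNC2H1, was at 0.81 and 0.74, and one intermediate chain, DYNC2I1, at 0.82 and 0.70. The other intermediate chain, DYNC2I2, had signals of 3921, 3702 and 3565 and lay below mock in both, at -0.08 and -0.14. Also below mock, DYNLL2, a light chain shared by several complexes, was at -0.65 and -0.20. The intermediate chain of cytoplasmic dynein DYNC1I2 was at -0.55 with miR-34a, with its 2 other probe sets at -0.57 and -0.95, and at 0.02 with ghR-34a.

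Regulators of motile ciliogenesis lay on both sides of mock. Of 15 measured, 10 passed the filter. With miR-34a 5 were above and 5 below mock, with a median of -0.05, where 55.2% of all kept genes were above. With ghR-34a 4 were above and 6 below, with a median of -0.14, where 51.8% of all kept genes were above. FOXJ1, the master transcription factor of motile cilia, was below the filter at 36.9, 4.86 and 10.8. E2F5, which acts with multicilin in multiciliated cells and also has roles in the cell cycle, had 2389, 872 and 969.6, at -1.42 and -1.27. It was the single kept regulator at 2-fold. Over all kept genes 1.14% and 0.562% were at least 2-fold lower. MYB, another kept regulator, had 194, 81.3 and 89.1, at -0.997 and -0.90, just short of 2-fold lower with miR-34a. RFX3, one of the RFX factors that control ciliary genes, had 253, 398 and 420.2, at 0.59 and 0.67. Its 3 other probe sets were above mock with miR-34a by 0.03 to 0.51. With ghR-34a they were at -0.28, 0.41 and 0.31. TP73, a p53 relative needed for multiciliated cells, had 67.8, 117 and 71.3, at 0.58 and 0.05. Its mock signal was below the filter, so it passed only through the transfectant arrays. CCP110 had 1344, 1731 and 1473, at 0.36 and 0.13. Its second probe set, at 26.4, 73.3 and 10.3, was above mock with miR-34a (0.85) and below with ghR-34a (-0.46). These are RNA signals, and a part of CCP110 in the members' differences was not tested. GMNC, a coiled-coil regulator upstream of multicilin, was at -1.03 with miR-34a from signals of 46.2, 6.37 and 43.6, all below the filter.

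Markers of multiciliated cells mostly lay below the filter. Of 18 measured, 5 passed, with medians of -0.16 and -0.06. Of these ZBBX was above mock in both arrays, at 50.7, 117 and 98.4 (0.85 and 0.66), but passed the filter only through the transfectant arrays. SPMIP6 was below mock in both, at 135, 85.6 and 76.3 (-0.51 and -0.63). TEKT2 (-0.43 and -0.33), SPAG6 (-0.16 and -0.06) and SPEF2 (0.27 and -0.04) were the others. The summed signal of the list was 741 in mock, 742 with miR-34a and 783 with ghR-34a. Of the 13 below the filter, FOXJ1 is described above, SNTN had signals of at most 18.8, TEKT1 of at most 14.2 and HYDIN of at most 5.89. The calcium-binding protein CAPS was at 7.74, 114 and 73.1, differences of 1.88 and 1.40, the single marker of this list past 2-fold, with a mean below the filter. Of all measured genes, 1.92% and 1.09% were at least 2-fold higher than mock. In bulk RNA, a change in the number of cells with a transcript and a change in its amount per cell cannot be told apart.

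**Figure D4:**
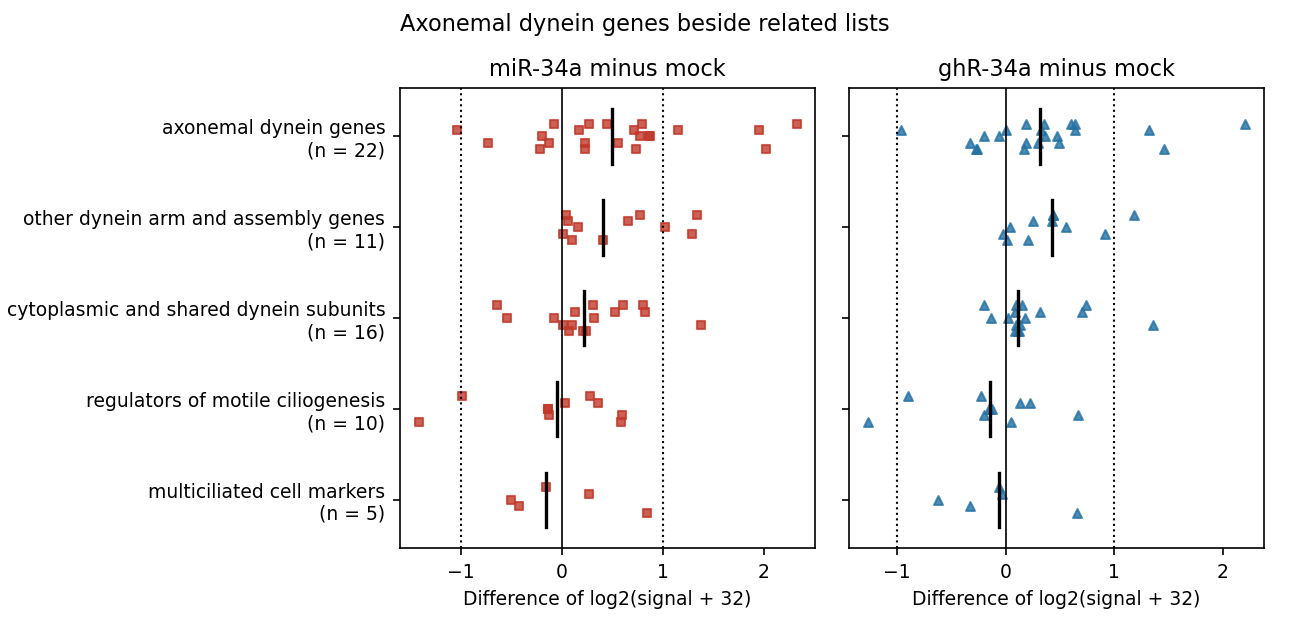
Log2 differences from mock of the kept genes of 5 lists, 1 point per gene with the median as a bar, for miR-34a and ghR-34a: axonemal dynein (22 genes), other dynein arm and assembly genes (11), cytoplasmic and shared dynein subunits (16), regulators of motile ciliogenesis (10) and multiciliated cell markers (5). The medians of the first 3 lists lie above 0 in both panels, and those of the regulators and markers lie at or below 0.

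Promoters of the family were read from RefSeq windows on GRCh38.p14, from 250 bases before to 50 after a start. Windows were found for 26 of the 35 genes, 32 in all, and DNAI4, DNAAF1, DNAAF3, DNAAF4, DNAAF9, DNAAF11, DNAH3, DNAH17 and ODAD4 were not matched. RFX factors, which control many ciliary genes, bind the X-box. The letters searched on both strands were GTTGCCA and GTTNCCATG, forms of the X-box that can overlap each other, and TGTTTAC, a forkhead motif. At least 1 match to GTTGCCA was in the windows of 7 of 26 members (26.9%) and of 4.98% of 27305 genes. The longer form was in 4 of 26 (15.4%) and in 2.06% of genes, and TGTTTAC was in 1 of 26, DNAH9, and in 4.19%. A match is a description of letters and not a site. The stretches around the match are shown for the 4 genes with the longer form, with matched letters in capitals.
DNAH1 (chr3:52316203-52316242, plus strand): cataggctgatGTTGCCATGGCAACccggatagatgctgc
DNAH2 (chr17:7717710-7717749, plus strand): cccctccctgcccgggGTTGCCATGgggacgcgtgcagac
DNAH12 (chr3:57544362-57544401, minus strand): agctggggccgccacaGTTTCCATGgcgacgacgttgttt
ODAD3 (chr19:11435181-11435220, minus strand): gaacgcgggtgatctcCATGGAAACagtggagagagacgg

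The other genes with GTTGCCA were DNAH10, DNAI2 and DNAI3. Of the 7 genes, only DNAH1 and ODAD3 passed the signal filter, out of 16 kept members with a window, and neither reached 2-fold against mock. DNAI7 is the one matched member that was at least 2-fold higher, and its window, at chr12:25195111-25195410 on the minus strand, is shown for that reason. None of the 3 motifs was found in these letters.
DNAI7: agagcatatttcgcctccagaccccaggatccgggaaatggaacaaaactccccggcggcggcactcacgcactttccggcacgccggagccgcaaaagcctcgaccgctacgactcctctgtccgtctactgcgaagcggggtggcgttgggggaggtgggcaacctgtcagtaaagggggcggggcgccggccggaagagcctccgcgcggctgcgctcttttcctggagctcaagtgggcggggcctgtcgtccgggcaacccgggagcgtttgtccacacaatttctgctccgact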

How the data were processed

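Total RNA of 3 NCI-H1299 cultures was measured on 1-colour arrays, 1 per condition. The authors deposited linear intensity for 54675 probe sets per array, made with Affymetrix Expression Console per the submitters' processing notes. Its version and settings are not given in the sources used here. A common scaling of the deposited intensity shows in a 2% trimmed mean of 500.1 on each array. No detection calls were used, and some low signals may not exceed background.

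From it log2(signal + 32) was computed. Leaving out 62 control probe sets, the platform annotation named 1 gene for 41091, several for 1801 (not used) and none for 11721. Of the first, 41043 matched RefSeq by Entrez identifier. All members are named. Those kept have their signals given, as do genes at 2-fold in the dynein, regulator and multiciliated marker lists. CCP110, FOXJ1, ACTB and GAPDH are always named. In the other marker lists MUC5AC, at 93.5, 132 and 44.3 (mock, miR-34a and ghR-34a), was at -1.11 for ghR-34a minus miR-34a. VWF, at 4.41, 61.6 and 9.99 and below the filter, was at 1.36 for miR-34a minus mock and -1.16 for ghR-34a minus miR-34a. Examples short of 2-fold in the lists were picked after their values were seen. The members and lists were chosen with earlier results of these data known. Simulated data were used to check the counting by size. Alternatives were other pseudocounts, filters and size rules, median centring, quantile normalization, averaged probe sets and leaving out _s_at and _x_at probe sets. Python 3.11.15, numpy 2.4.6, pandas 2.3.3 and matplotlib 3.10.9 were used. No genome was used, and target sites in untranslated regions were not analysed here.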

Additional observations from a re-analysis of the deposited data

How the results depend on the processing

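With 1 array per condition there is no replicate error, so values were set against the spike-in SD and counts against 1.5 times the count reported. No paired analysis was possible because each condition has 1 array. No member difference of at least 2-fold changed sign under an alternative. Smaller ones did with averaged probe sets: against mock DNAH14 with miR-34a (0.16), and with ghR-34a DNAH14 (0.05), DNAH7 (-0.19), DNAAF11 (-0.03), DNAI1 (-0.02), DNAH1 (0.04) and DNAH3 (near 0). Median centring, quantile normalization and leaving out _s_at and _x_at probe sets moved no count or median of the members beyond these limits, although centring moved the median of ghR-34a minus miR-34a from -0.16 to -0.06, and turned the sign of DNAAF3, DNAH3 and DNAH8 there. With a pseudocount of 1, 1 member (DNAH6) was at least 2-fold lower with ghR-34a than mock and 1 (DNAH1) lower with ghR-34a than miR-34a, where the main counts were 0. Over all kept genes the shares were 1.10% and 0.848% in that order. With a pseudocount of 100, 0 were lower with miR-34a, the miR-34a median was 0.34 and 0 were higher with ghR-34a than miR-34a. Over all kept genes, 0.621% were lower with miR-34a and 0.151% higher with ghR-34a than miR-34a. Without a filter the miR-34a median was 0.25, and 2 members were higher with ghR-34a than miR-34a, where 0.89% of all genes were. With a filter at the 75th percentile, 8 members were left. Then 2 were higher and 0 lower with miR-34a, with a median of 0.092, 1 was higher with ghR-34a, and 0 were higher with ghR-34a than miR-34a. Over all genes left by that filter the shares were 0.683%, 1.04%, 0.245% and 0.219% in that order. With averaged probe sets 16 members were left. Of these 0 were lower with miR-34a, where 0.814% of all genes were, and the median was 0.33. At 1.5-fold, 10 of the 22 were higher and 2 lower with miR-34a, 6 higher and 1 lower with ghR-34a, and 2 lower with ghR-34a than miR-34a. Over all kept genes the shares were 6.66%, 5.31%, 3.19%, 4.05% and 3.26% in that order. At 3-fold, 0 members were lower with miR-34a, 1 was higher with ghR-34a and 0 were higher with ghR-34a than miR-34a. The same shares over all kept genes were 0.0755%, 0.0252% and 0.0336%. Restricting to members with mock at or above the filter, an alternative added after seeing the data, left 2 higher and a median of 0.23 with miR-34a. With ghR-34a 1 was higher. Of all genes so restricted, 0.93% were higher with miR-34a and 0.28% with ghR-34a. DNAI7 was at 0.74 with ghR-34a under a pseudocount of 100. Signals near or below 68.6 limit what can be said of DNAI4, DNAI7 and the 12 members under the filter.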
